A study of Mus musculus with 12 samples.

Results

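The eIF4E group comprises the cap-binding proteins eIF4E and eIF4E2, the 4E-binding proteins (4E-BPs) that hold eIF4E back, the eIF4G scaffolds and the eIF4A helicases. Its members were every probe set annotated to exactly 1 of 10 gene symbols (Eif4ebp1, Eif4ebp2, Eif4ebp3, Eif4e, Eif4e2, Eif4g1, Eif4g2, Eif4g3, Eif4a1 and Eif4a2). This gave 30 of 45101 probe sets, for 8 of the 10 genes, out of 18194 genes with a probe set of their own. Eif4ebp3 shares its probe set with Ankhd1, so it has no value of its own. The annotation used names no probe set for Eif4g1, whose level was not analysed here and of which only the promoter is described. The group was chosen by the knockdown minus wild type values of Eif4ebp2, which an earlier analysis of these arrays had placed among its lowest p-values. Differences between knockdown and wild type are therefore given as a description, with no p-value for a member; how many members were called is printed beside the same share over the array and supports nothing.

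The arrays compared wild type mouse erythroleukemia (MEL) cells with MEL cells carrying a knockdown of G9a, the product of Ehmt2, which methylates lysine 9 of histone H3. MEL cells are a transformed erythroid line that matures toward red cells in dimethyl sulfoxide (DMSO). Per the labels, DMSO was used at 2% for 4 days, and doxycycline (Dox) at 5 micrograms per ml switched the knockdown on. That text stands on wild type and knockdown arrays alike, so it does not tell whether wild type cells were given doxycycline, and how the knockdown line was built or cloned is not given in the sources used here. There were 3 arrays a group, numbered 1 to 3. Whether arrays of a group came from separate cultures is not stated, so the errors may be in part technical.

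At the start of translation, eIF4E binds the cap at the end of a messenger RNA and recruits eIF4G, which brings the helicase eIF4A and, through eIF3, the small ribosomal subunit. The 4E-BPs compete with eIF4G for the same surface of eIF4E, and phosphorylation by the kinase mTOR releases them. In erythroid cells, where globin makes up most of the protein made, initiation is also controlled by heme through a kinase of eIF2. These steps are set largely by phosphorylation, which an RNA array does not measure.

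Upstream sequence is shown for Eif4ebp2, the member with the largest difference, and for Eif4e and Eif4a1, 2 measured members with a CACGTG motif (E-box), the site bound by MYC and related factors. The sequences are from RefSeq on build GRCm38.p6, are written 5′ to 3′ on the strand of the gene, and have the E-box in capitals. The Eif4ebp2 stretch is chr10:61452791-61452919 on the minus strand, that of Eif4a1 is chr11:69672424-69672673 on the minus strand, and those of Eif4e, from the second start site in the table, are chr3:138527028-138527057 and chr3:138527192-138527221 on the plus strand.
Eif4ebp2: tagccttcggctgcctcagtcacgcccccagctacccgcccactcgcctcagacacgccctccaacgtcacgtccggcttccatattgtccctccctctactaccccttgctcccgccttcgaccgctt
Eif4e, distal E-box: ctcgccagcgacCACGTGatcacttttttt
Eif4e, proximal E-box: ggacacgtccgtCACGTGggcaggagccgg
Eif4a1: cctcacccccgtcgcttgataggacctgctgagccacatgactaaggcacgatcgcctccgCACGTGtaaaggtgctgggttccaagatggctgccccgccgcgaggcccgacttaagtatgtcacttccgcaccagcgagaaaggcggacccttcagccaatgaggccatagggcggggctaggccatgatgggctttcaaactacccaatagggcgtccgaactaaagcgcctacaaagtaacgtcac

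RefSeq promoters were searched for 7 member genes (Eif4ebp2, Eif4e, Eif4e2, Eif4g1, Eif4g3, Eif4a1 and Eif4a2). Eif4ebp1, Eif4ebp3 and Eif4g2 were not among them, and the counts below do not cover these genes. A reason is not given for each. Any member promoter on 1 chromosome was left out beforehand, while the shares over all genes kept every chromosome. The 2 are therefore not fully alike. Searched on both strands over the 250 bases before each start site, CACGTG occurred in 3 of the 7 (Eif4e, Eif4g1 and Eif4a1), against 6.86% of 27025 genes. The 2 E-boxes of Eif4e begin at positions −228 and −64 from the second of 2 start sites, the other of which has 0, and that of Eif4a1 at −189. The GC box GGGCGG occurred in 5 of the 7, against 35.4% of genes, with 2 copies before Eif4ebp2, 1 of them in the stretch shown. That stretch runs from position −250 to −122 and does not reach the start. It is the longest run of the 250 bases that lies outside annotated genes. The other copy lies outside it, nearer the start. The GATA motif AGATAA occurred in 0 of the 7, against 11.4% of genes. These are matches of letters and do not show binding.

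Values are GCRMA log2 levels as deposited, and a difference is knockdown minus wild type. A probe set was tested if 3 or more of the 6 arrays read over log2 4. Of the 30 member probe sets 20 passed, covering all 8 genes. All 20 lay above log2 4 in every array, so none passed through 1 group alone. The nearest to the filter on its upper side were Eif4ebp2 at 1455575_at, with a lowest array of 4.71, and Eif4e2 at 1421986_at, with a lowest array of 4.72. The other 10 read between 1.91 and 3.73, the highest of them Eif4ebp1 at 1417563_at. They belong to 6 genes (2 of Eif4e, 1 each of Eif4e2, Eif4ebp1 and Eif4ebp2, 2 of Eif4g2 and 3 of Eif4g3) and are not described further. Levels of different probe sets are not compared, because each probe set has its own affinity.

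Ehmt2, the targeted gene, fell in the knockdown. It read 7.43, 7.07 and 6.82 at 1426888_at in replicates 1 to 3 of wild type, against 4.29, 4.28 and 4.16 in the knockdown. At 1460692_at it read 9.92, 10.03 and 10.23, and 6.67, 7.33 and 7.58. The differences of −2.86 and −2.87 both passed in limma with the replicate block (adjusted p = 0.0278 and 0.0316), and without the block the second did not (adjusted p = 0.0719). Neither passed in MAS5 as log2(value + 1), the second summary deposited for the same arrays (differences −2.71 and −2.46, limma adjusted p = 0.419 and 0.295), while as log2(value + 64) 1460692_at did (−2.31). Of 10 erythroid markers with a probe set of their own 9 lay above the filter, Gata1, Klf1, Alas2 and Epor among them. The one below it was Hba-a1. Of the megakaryocyte markers 2 of 5 lay above it (Itga2b and Pf4), and of the myeloid markers 2 of 7 (Spi1 and Csf1r). Of the lymphoid and of the fibroblast and endothelial markers 0 of 5 and 0 of 7 did so.

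Across the array limma with the block called 2 of 17028 probe sets, both of Ehmt2, which is 0.0117%, and without the block 1, which is 0.00587%. Of the 20 member probe sets 0 were called, with the block or without it, in GCRMA or in MAS5. At an unadjusted p under 0.05 there were 4 with the block, against 13.7% of all probe sets tested, and 2 without it, against 5.87%. In MAS5 there were 3 with the block, against 10.6%, and 2 without it, against 6.47%. The 4 were Eif4ebp2 at 1436158_at and 1417084_at, Eif4g3 at 1426833_at and Eif4e2 at 1421986_at. Since the contrast chose the group, nothing is read from these counts.

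Eif4ebp2 encodes 4E-BP2, one of the 3 repressors that bind eIF4E when they are hypophosphorylated. At its brightest probe set, 1436158_at, it read 11.20, 10.86 and 10.93 in replicates 1 to 3 of wild type, against 10.03, 10.23 and 9.94 in the knockdown. Every knockdown array lay below every wild type array, and the lowest wild type array stood 0.63 above the highest knockdown array, both of them replicate 2. The difference was −1.16 in replicate 1, −0.63 in replicate 2 and −0.99 in replicate 3. Their mean was −0.93 (SE 0.13, limma with the block), a knockdown level 52.6% of that in wild type. In MAS5 the intensity there was 3871 ± 427 in wild type arrays and 2069 ± 65.4 in knockdown arrays (SD, n = 3 arrays each), a difference of −0.90 on the log2(value + 1) scale.

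The other Eif4ebp2 probe sets gave smaller differences of the same sign. At 1417084_at the levels were 9.56, 9.16 and 9.24 in wild type arrays and 9.07, 8.85 and 8.71 in knockdown arrays. The groups were again apart, by less than the spread within either one, and the mean difference was −0.45 (SE 0.10; −0.46 in MAS5). At 1437733_at the levels were 9.82, 9.62 and 9.80, and 9.78, 9.39 and 9.61. Here the groups overlapped, as the 2 replicate 1 arrays differed by only −0.037, and the mean difference was −0.15 (SE 0.10; −0.22 in MAS5). At the dim probe set 1455575_at the levels were 5.45, 5.06 and 4.82, and 4.87, 4.71 and 4.88. Replicate 3 there had a difference of 0.057 against −0.58 and −0.36 in the others, and the mean was −0.29 (SE 0.15; −0.26 in MAS5). The dim and the brightest probe set were designed on the same source sequence. Where the probe sets lie along the transcript was not analysed here, and the 4 differences are therefore given side by side.

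Eif4ebp1 encodes 4E-BP1, the best studied of the repressors. At 1417562_at it read 9.88, 9.58 and 9.76 in wild type arrays and 9.81, 9.71 and 9.70 in knockdown arrays. All 3 knockdown arrays lay within the wild type range, with a mean difference of 0.00065 (SE 0.10). At 1434976_x_at it read 9.56, 9.46 and 9.60, and 9.51, 9.32 and 9.54, also with overlapping groups. The difference there was −0.083 (SE 0.094), and it was 0.033 in MAS5. So Eif4ebp1 had differences under 0.1 in size at both tested probe sets, while those of Eif4ebp2 ran from −0.15 to −0.93. Each gene also has a probe set below the filter, which is left out here. This contrast between the genes was not tested.

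**Figure D1:**
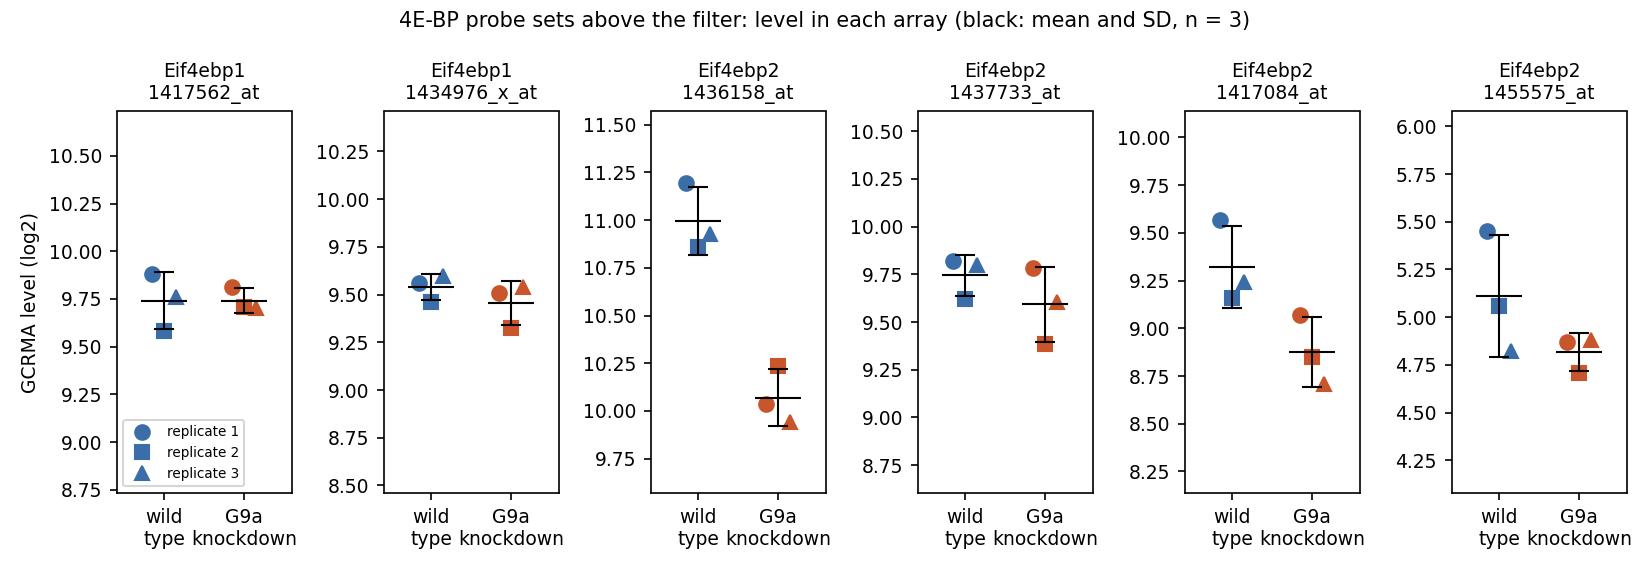
GCRMA log2 level of the 6 tested Eif4ebp1 and Eif4ebp2 probe sets in each array, with symbols for the replicate number and the mean and SD of 3 arrays in black; each panel spans 2 log2 units on its own axis. Knockdown arrays lie below all wild type arrays at Eif4ebp2 1436158_at and 1417084_at, and the groups overlap in the other 4 panels.

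Eif4e encodes the cap-binding protein that the 4E-BPs sequester. At 1450908_at it read 10.35, 10.28 and 10.17 in wild type arrays and 10.25, 10.27 and 9.97 in knockdown arrays. The groups overlapped, with a difference of −0.10 (SE 0.098). At 1423220_at it read 7.92, 8.04 and 7.74, and 8.07, 8.07 and 8.0, a difference of 0.14 (SE 0.10). The 2 probe sets, designed on the same source sequence, thus had opposite signs, each with groups that overlapped in GCRMA. In MAS5 the differences were −0.023 and 0.23, and at the second the groups were apart.

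Eif4e2 encodes 4EHP, a cap-binding relative that does not bind eIF4G and acts in repression of translation. Its brighter probe sets had small negative differences and its dimmer ones positive differences. At 1435803_a_at it read 11.13, 11.15 and 10.96 in wild type arrays and 11.16, 10.95 and 10.94 in knockdown arrays, a difference of −0.066 (SE 0.10). At 1421985_a_at it read 10.34, 10.28 and 9.94, and 10.18, 10.09 and 9.81. The difference was nearly the same in each replicate number there (−0.16, −0.19 and −0.13), although the groups overlapped.

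At the dimmer Eif4e2 probe sets every knockdown array lay above every wild type array. At 1455108_at the levels were 6.73, 6.75 and 6.63, and 6.88, 6.93 and 6.78, with a difference of 0.16 (SE 0.092). At 1421986_at they were 4.90, 5.29 and 4.72, and 5.31, 5.37 and 5.29. The difference of 0.36 (SE 0.13) at the latter rested on replicates 1 and 3 (0.41 and 0.57), with 0.085 in replicate 2. In MAS5 the differences were 0.13 and 0.35, and the groups overlapped at both. The probe sets 1421985_a_at and 1421986_at were designed on the same source sequence and differed in sign, so the gene has no single direction on these arrays.

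Of the scaffold genes, Eif4g3 encodes eIF4GII, a close relative of the main scaffold eIF4G1. At its tested probe set, 1426833_at, it read 9.83, 10.19 and 10.07 in wild type arrays and 9.64, 9.97 and 9.63 in knockdown arrays. Each knockdown array lay below the wild type array of its number, by −0.19, −0.22 and −0.44, while the groups overlapped. The mean difference was −0.28 (SE 0.10), and −0.20 in MAS5.

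Eif4g2 encodes DAP5, a scaffold that lacks the eIF4E-binding part and serves initiation without eIF4E. At 1452758_s_at it read 13.96, 14.35 and 14.52 in wild type arrays and 14.27, 14.21 and 14.47 in knockdown arrays. At 1415863_at it read 13.78, 13.88 and 13.89, and 13.77, 13.62 and 13.97. At 1428362_at it read 10.96, 10.72 and 10.85, and 11.22, 10.68 and 11. The groups overlapped at all 3, and each probe set held both signs among the replicate numbers. The mean differences were 0.039 (SE 0.12), −0.067 (SE 0.11) and 0.12 (SE 0.11), and in MAS5 0.16, 0.091 and 0.17.

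Eif4a1 encodes the main RNA helicase of the complex, which unwinds the leader of the messenger RNA. At 1430980_a_at it read 13.54, 13.43 and 13.48 in wild type arrays and 13.24, 13.15 and 13.47 in knockdown arrays. At 1427058_at it read 13.06, 13.15 and 13.22, and 12.87, 12.84 and 13.16. Both probe sets differed by −0.19 (SE 0.11 and 0.10), and at both the knockdown replicate 3 array lay within the wild type range. The third, 1434985_a_at, read 12.65, 12.94 and 13.04, and 13.08, 12.58 and 12.90. Its difference was −0.022 (SE 0.17), with 0.43 in replicate 1 and −0.36 and −0.14 in replicates 2 and 3, and 0.10 in MAS5.

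Eif4a2 encodes the second eIF4A helicase, which also works with deadenylation complexes. At 1450934_at it read 11.61, 12.57 and 12.93 in wild type arrays and 11.69, 13.01 and 12.51 in knockdown arrays. The replicate 1 arrays of both groups were the lowest, and the lowest of the other 4 read 12.51. The mean difference between the groups was 0.030 (SE 0.18 with the block and 0.44 without it), while the replicate 1 mean lay 1.11 below that of replicates 2 and 3. Of all tested probe sets, 2% had a replicate 1 mean lower by over log2 1, and 1.28% one that was higher by as much. At the other member probe sets the same quantity ran from −0.27 to 0.33. What the replicate number stands for is not stated in the labels, and its part in the level of Eif4a2 was not tested.

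**Figure D2:**
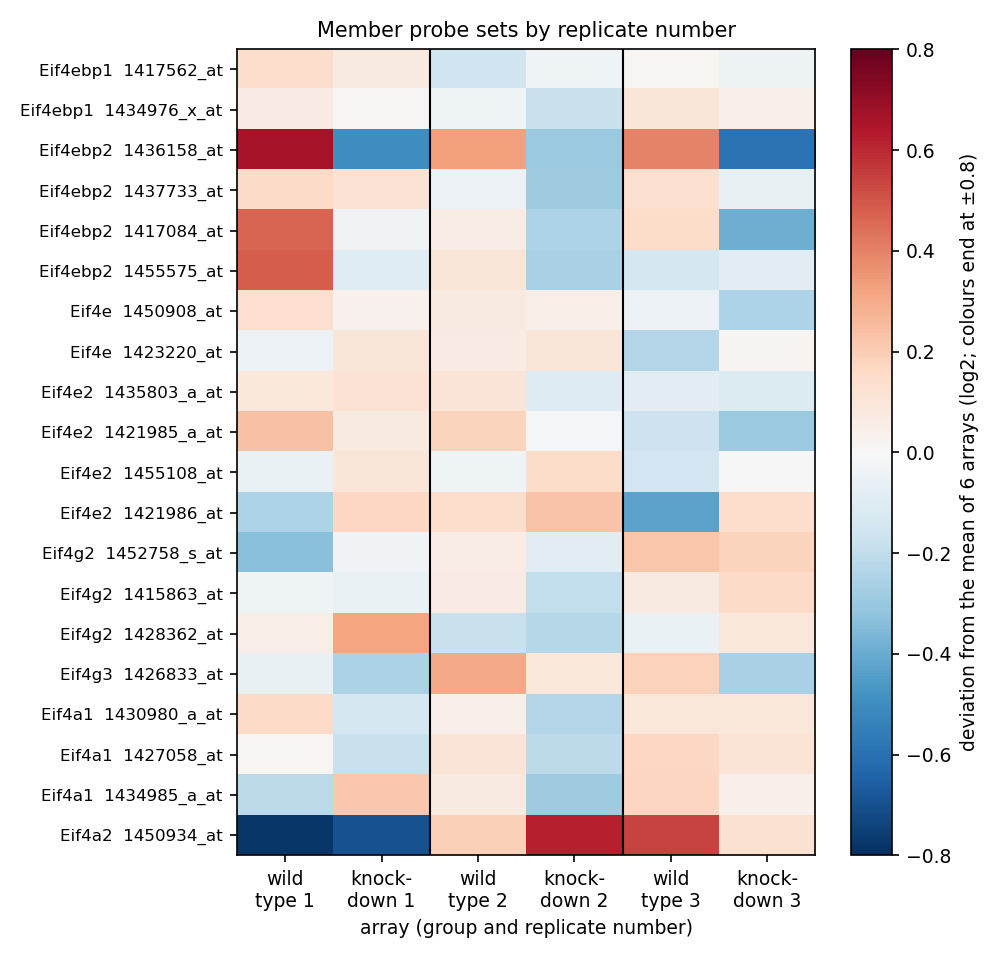
Deviation of each tested member probe set from its mean over 6 arrays (log2), with the arrays ordered by replicate number. Eif4a2 is low in both replicate 1 arrays, and Eif4ebp2 at 1436158_at is high in the 3 wild type arrays and low in the 3 knockdown arrays.

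Over the 20 tested member probe sets 13 differences were negative and 7 positive, with a median of −0.075, beside −0.0083 over all 17028 tested. Without the 4 probe sets of Eif4ebp2 the median was −0.044, with 9 negative and 7 positive. In MAS5 the members' median was −0.0050, with 10 of each sign. The difference was negative in all 3 replicate numbers at 9 probe sets (45%, against 20.6% of all probe sets tested) and positive in all 3 at 3 (15%, against 17.3%). The 9 included Eif4ebp2, the gene by which the group was chosen, at 1436158_at, 1437733_at and 1417084_at. The groups were apart and lower at 2 probe sets (10%, against 7.33%), both of Eif4ebp2, and apart and higher at 2 (10%, against 5.04%), both of Eif4e2. The sign was the same in MAS5 at 17 of the 20 (85%, against 79.4%). The exceptions were Eif4ebp1 at 1434976_x_at, Eif4g2 at 1415863_at and Eif4a1 at 1434985_a_at, each under 0.1 in size in GCRMA. In MAS5 the groups were apart and lower at 3, all of Eif4ebp2 (6.04% of all probe sets), and apart and higher at 1, of Eif4e (6.64%).

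**Figure D3:**
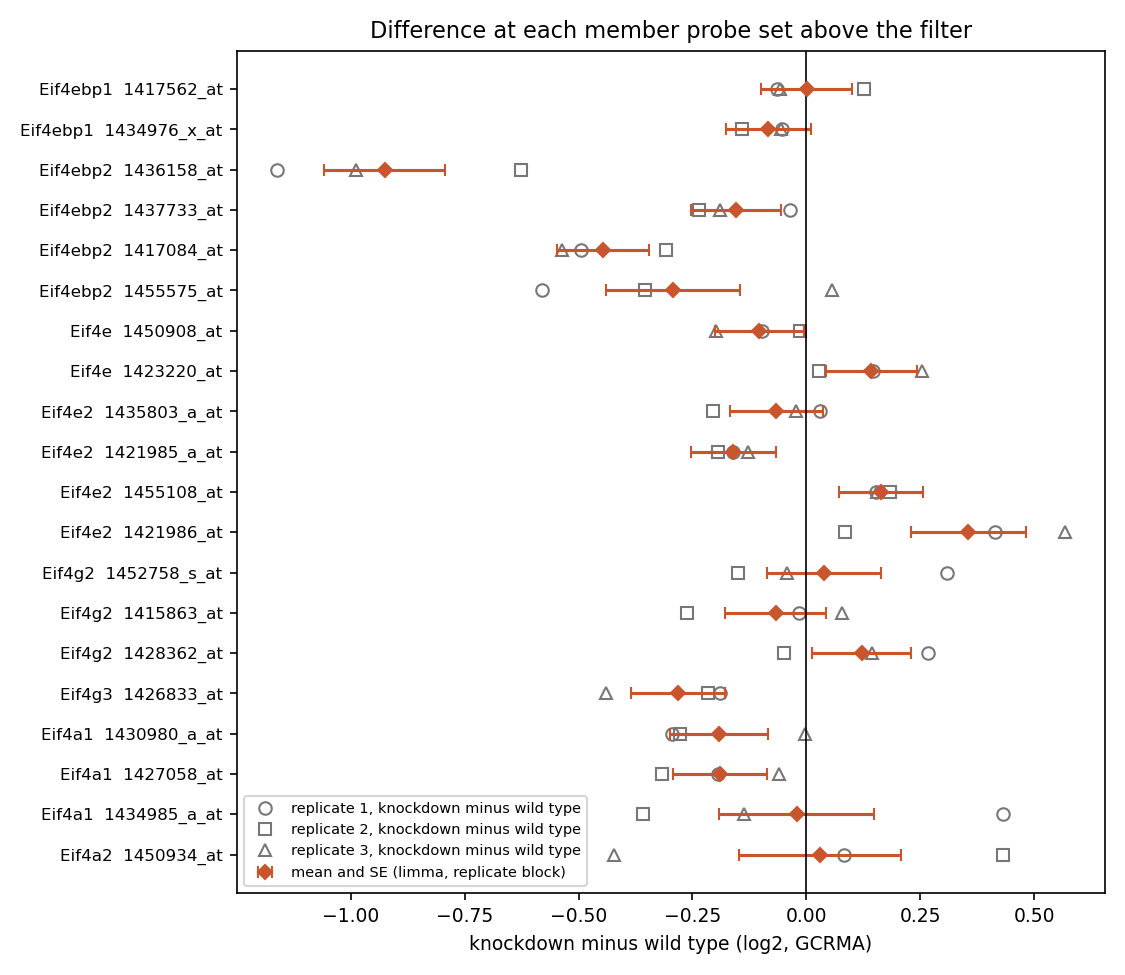
Knockdown minus wild type (log2, GCRMA) at each of the 20 tested member probe sets; grey symbols are the 3 replicate numbers, and red diamonds with bars are the mean and its SE from limma with the replicate block. The 4 Eif4ebp2 probe sets have means from −0.93 to −0.15, and the other means lie between −0.28 and 0.36.

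**Figure D4:**
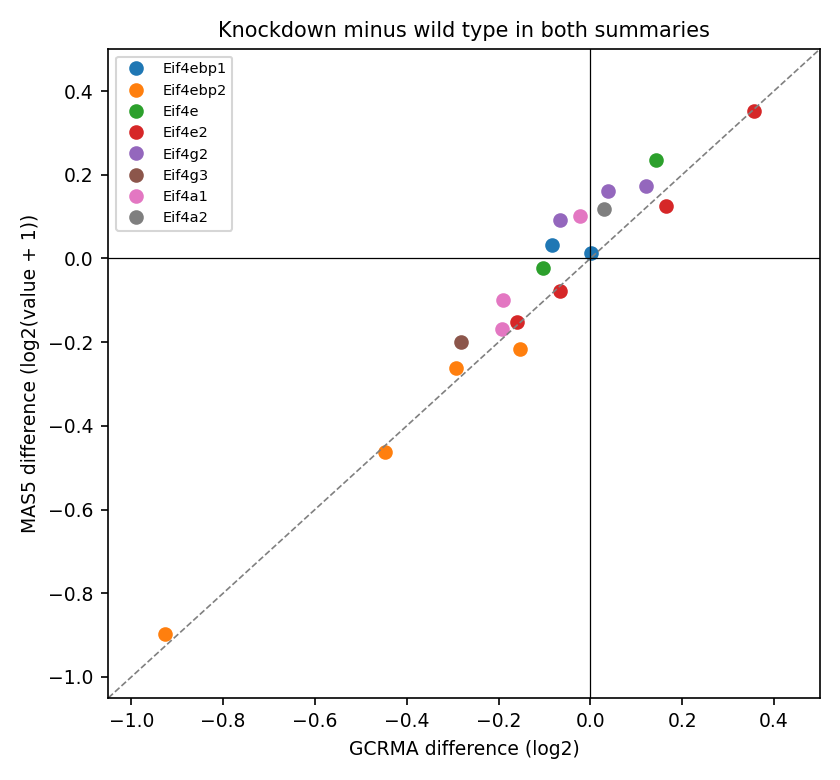
Mean difference of each tested member probe set in GCRMA (log2) against MAS5 (log2(value + 1)), coloured by gene, with the line of equality dashed. Eif4ebp2 at 1436158_at stands apart at −0.93 and −0.90, and 3 points lie below 0 in GCRMA and above 0 in MAS5.

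The summed level of megakaryocyte markers was, like Eif4ebp2, lower in the knockdown, with the groups apart. Summed as linear values over 5 megakaryocyte markers, the level was 3704 to 4602 in the wild type arrays and 2116 to 3240 in the knockdown, carried mostly by Itga2b (a log2 difference of −0.71). Pf4, the other marker above the filter, differed by −0.12 with overlapping groups (0.23, 0.16 and −0.75 by number), while 3 of the 5 (Gp1bb, Gp9 and Ppbp) were below the filter. The sum over 10 erythroid markers was 55163 to 60397 in wild type and 54720 to 60881 in the knockdown. Its largest term, Tfrc, differed by −0.23 with the groups apart (−0.019 in MAS5, overlapping). Gata1, Alas2 and Klf1 differed by 0.15, 0.20 and 0.40 with overlapping groups, and the remaining markers had both signs. The sum therefore does not show that each erythroid marker kept its level. The 7 myeloid markers summed to 179 to 256 and 195 to 317. Their part in the Eif4ebp2 difference was not tested, and in bulk RNA fewer cells of a type and less RNA per cell cannot be told apart.

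The genes whose profile over the 6 arrays was closest to Eif4ebp2 at 1436158_at were taken from 9017 other tested genes, by the root mean square difference of levels centred on each probe set's mean. They were Zfp60 (0.10 log2), a zinc finger gene, Uxs1 (0.13), which makes UDP-xylose, Erp29 (0.15), a chaperone of the endoplasmic reticulum, Nqo1 (0.16), a quinone reductase, and Cdc34 (0.16), a ubiquitin-conjugating enzyme. Their differences were −0.85, −0.71, −0.92, −0.75 and −0.73, with the groups apart in each, which follows from choosing them by likeness to that profile. Of the other member probe sets the closest to 1436158_at was Eif4ebp2 at 1417084_at (0.27), followed by Eif4ebp2 at 1455575_at (0.36). Of the 9017 genes, 77 were closer to 1436158_at than 1417084_at was. The farthest was Eif4a2 (0.77).

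Outside the members, 95 genes in 6 lists of initiation factors and their regulators were examined, of which 82 had a tested probe set. Where a gene had several tested probe sets, the brightest stood for it. In limma with the block 0 of the 82 were called in either direction, as without the block and in MAS5. At an unadjusted p under 0.05 there were 12 (14.6%, against 13.7% of all probe sets tested), and 8 without the block (5.87% of all). The median difference over the 82 was 0.035, with 46 positive and 36 negative.

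In the list of partners of eIF4E and eIF4A, 7 of 9 tested genes were positive and the median difference was 0.20. The list also held Tbpl1 (−0.084), a TBP-like transcription factor and not such a partner. Eif4b, whose product stimulates eIF4A, differed by 0.29, 0.35 and 0.28 at its 3 probe sets (SE 0.11, 0.10 and 0.11), from 11.53 ± 0.14 to 11.82 ± 0.15 at 1426378_at. Pdcd4, which encodes an inhibitor of eIF4A, differed by 0.42 (SE 0.18), with 0.91 in replicate 1 and 0.20 and 0.15 in the others. Gigyf2, which encodes a partner of 4EHP, differed by 0.42 at 1439837_at, again mostly through 1 number (0.88 in replicate 3), and by 0.050 and 0.16 at its other probe sets. Their limma adjusted p ran from 0.279 to 0.385 at the probe sets with differences over 0.2.

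In the list of eIF4E and 4E-BP kinases and the mTOR complex 1 pathway, 13 of 27 tested genes were positive and 14 negative. The median was −0.011 (0.024 in MAS5). The list is wider than the genes that set the phosphorylation of the 4E-BPs. It also held Mknk1 and Mknk2, kinases of eIF4E, and Rps6kb2, Rps6 and Larp1, which act downstream of mTOR complex 1. Mtor, the kinase itself, read 8.85 ± 0.055 in wild type arrays and 8.70 ± 0.13 in knockdown arrays, a difference of −0.15 (SE 0.095). The lowest p-values belonged to genes with negative differences. Rps6kb2, a ribosomal protein S6 kinase, read 7.24 ± 0.057 and 6.70 ± 0.24, a difference of −0.55 (SE 0.12, limma adjusted p = 0.209). Tbc1d7, a subunit of the TSC complex that restrains mTOR complex 1, differed by −0.57 (SE 0.19; −0.90, −0.76 and −0.050 by number, limma adjusted p = 0.313). Lamtor5, a subunit of the lysosomal anchor of the complex, differed by −0.47 and −0.41 at its 2 probe sets (limma adjusted p = 0.341 and 0.391).

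Of the poly(A)-binding proteins and their regulators, which meet eIF4G from the other end of the messenger RNA, 3 of 5 were positive, with a median of 0.010. In MAS5 all 5 were positive, with a median of 0.12. Pabpc4, a poly(A)-binding protein, read 12.49 ± 0.17 in wild type arrays and 13.06 ± 0.066 in knockdown arrays at 1451296_x_at, and differed by 0.57 there and by 0.56 at 1421046_a_at (SE 0.12 at both, limma adjusted p = 0.21 and 0.206). The groups were apart at both probe sets. Paip1 differed by −0.17 at its brightest probe set and by 0.078 and 0.40 at the others, and Paip2 by 0.12.

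The eIF3 complex joins eIF4G to the small ribosomal subunit, and 8 of its 11 tested subunits were positive, with a median of 0.052. The subunits Eif3f, Eif3h and Eif3k differed by 0.38, 0.31 and 0.28 (SE 0.098, 0.10 and 0.10), each positive in all 3 replicate numbers (limma adjusted p = 0.25, 0.311 and 0.342). In the list of eIF2, eIF2B and eIF2 kinases 9 of 16 genes were positive, with a median of 0.052. In MAS5 8 of 16 were positive, with a median of 0.023. The list also held the phosphatase subunits Ppp1r15a (0.073) and Ppp1r15b (0.39). Eif2a (0.13) and Eif2d (0.11), which are not subunits of eIF2, were in it too. All of these were positive, so the median is not that of eIF2, eIF2B and the kinases alone. With the block, the GCRMA median turned to −0.0029 without replicate 2. Without the block, it turned to −0.032 when wild type replicate 2 was left out and to −0.0037 when wild type replicate 3 was. When knockdown replicate 1 was left out, it turned to −0.022. Eif2ak1, the heme-regulated eIF2 kinase of erythroid cells, differed by −0.19 and −0.15 at its brighter probe sets and by 0.25 at 1436006_at (limma adjusted p = 0.537, 0.56 and 0.447). Ppp1r15b, a subunit of the eIF2 phosphatase, differed by 0.39 (0.21 at its dimmer probe set), the exchange factor subunit Eif2b4 by −0.40, and the amino acid sensing kinase Eif2ak4 by 0.17.

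In the list of scanning and subunit joining factors 8 of 14 genes were negative, with a median of −0.059 (0.016 in MAS5). The list also held genes with other roles. Of these, Eif5a (−0.15), Eif6 (−0.11), Denr (−0.060), Mcts1 (−0.13) and Eif1ad were negative, and Abce1 (0.017) and Eif5a2 (0.28) positive. The median is therefore not that of scanning and joining factors alone. Eif1ax, which opens the small subunit for scanning, differed by −0.27 at 1419736_a_at, from 13.03 ± 0.0039 to 12.76 ± 0.065, and by 0.16 and 0.43 at its dimmer probe sets. Eif1ad differed by −0.39 at its brighter probe set and by 0.038 at the other. Dhx29, a helicase for structured leaders, differed by 0.26.

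**Figure D5:**
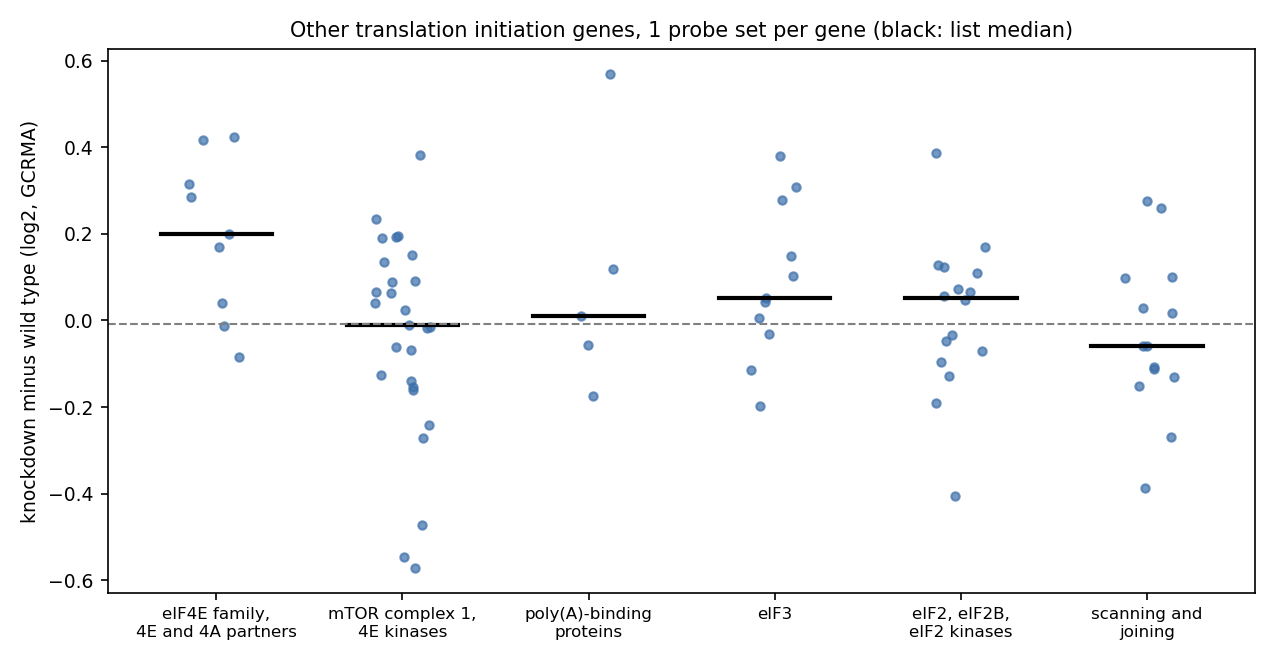
Knockdown minus wild type (log2, GCRMA) of 82 tested genes in 6 lists of translation initiation genes, 1 point a gene; black bars are list medians, and the dashed line is the median of −0.0083 over all probe sets tested. List medians run from −0.059 to 0.20, and 0 of the 82 genes were called.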

How the data were processed

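RNA of 6 hybridizations to Affymetrix mouse expression arrays had been deposited in 2 summaries, per the labels. As deposited by the authors, MAS5 values are linear intensity and GCRMA values are log2; for the software, version and settings were given in none of the sources used. The 12 columns are 6 arrays, and the summaries were not counted as replicates. No depth applies to arrays, and 3 a group limits the precision.

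Genes were named from the platform annotation supplied, which gives 1 gene for 34958 probe sets, several for 932 and none for 9211. The 64 control probe sets were left out. GCRMA values were fitted with limma 3.58.1 in R 4.3.3 (lmFit, eBayes, group plus replicate number as a block, Benjamini-Hochberg, threshold 0.05), and MAS5 as log2(value + 1) on the same probe sets. Deviations from the group means correlated at 0.72, 0.57 and 0.37 between arrays of the same number and at most at 0.17 otherwise, so the arrays of a number deviated together; the block itself was set along with the choice of members, and what a number stands for is not stated.

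Members and lists were chosen with earlier results of these data known. Named were all member and Ehmt2 probe sets, up to 3 genes a list by lowest p besides Eif2ak1 and Mtor, and the 5 genes closest in profile to Eif4ebp2. Alternatives were the fit without the block, MAS5 (pseudocounts 1 and 64), other filters, median centring, quantile normalization, array weights and left-out arrays. On simulated arrays of 17028 probe sets for this comparison, the fit recovered 50 of 100 differences of log2 1 and 85 of 100 of log2 2.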

Additional observations from a re-analysis of the deposited data

How the results depend on the processing

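With 18 alternatives run, 0 of the member probe sets and 0 of the list genes were called in any of them. Counts over all probe sets were small throughout. With the replicate block 2 probe sets were called, without it 1, in MAS5 0 with and 0 without the block (1799 and 1101 at an unadjusted p under 0.05 in limma), in MAS5 with a pseudocount of 64 1 (Ehmt2 at 1460692_at), with no filter on dim probe sets 0 (3883 unadjusted), above log2 6 in 3 arrays 8, and with array weights 4. Leaving out a replicate number with the block gave 0 to 1 (1476 to 2221 unadjusted). Single arrays were left out only together with the block, which gave 0 to 1 (766 to 1154 unadjusted, against 999 from dropping the block alone). With the block, both Ehmt2 calls ended without replicate 1 or 2 (0 called), and 1426888_at alone was called without replicate 3. The differences without replicate 1 or 2 were −2.73 and −2.90 at 1426888_at and −2.68 and −2.95 at 1460692_at. A left-out number removes both of its arrays.

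Of the 20 member probe sets 12 kept their sign in every alternative that held them. These were all 4 of Eif4ebp2, both of Eif4e and that of Eif4g3. The others were 3 of the 4 of Eif4e2 (not 1435803_a_at) and 2 of the 3 of Eif4a1 (not 1434985_a_at). Some alternatives could not change a sign, because dropping only the block or changing the filter leaves each difference as it was. The Eif4ebp2 values also chose the group, so nothing is read from their kept sign. Eif4ebp2 ranged from −1.08 to −0.81 at 1436158_at, from −0.54 to −0.33 at 1417084_at, from −0.25 to −0.051 at 1437733_at and from −0.47 to −0.12 at 1455575_at. Eif4a2 ranged from −0.35 to 0.39. Of 108 list medians under the alternatives 13 moved beyond the spread between replicates, in the poly(A), eIF2 and scanning lists; that of the poly(A) list ran from −0.065 to 0.15.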
